A study of Arabidopsis thaliana with 6 samples.

Results

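The calmodulin-like (CML) genes of Arabidopsis thaliana were examined in an RLI T-DNA insertion mutant, rli, against wild type (WT). The members are all probe sets whose single gene in the array annotation has a symbol made of CML and a number. There were 7 of them among 13513 probe sets with 1 gene, and 22810 probe sets on the array: CML23, CML30, CML37, CML38, CML41, CML42 and CML43. The gene table holds 14 loci with a CML symbol or synonym, which is a count of names in that table and not of the CML family. The members, which have a probe set named through the array annotation, are only a part of the family. No member was represented by a probe set of the type marked as shared between genes.

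RNA of 3 rli and 3 WT samples was hybridised to 6 Affymetrix ATH1 arrays, each with a single colour, and came from whole soil-grown plants with rinsed roots. RLI (ABCE), named as an inhibitor of RNase L, binds ATP and helps to recycle ribosomes, and the title of the study concerns its effect on RNA stability. The rli plants carry the stage label 1.14 weeks and the WT plants 3.20 weeks, while all plants carry the source name Co-1 and the stock code N1084. The values 1.14 and 3.20 may be growth stage codes, so no difference in age is read from them. The labels name neither the insertion allele nor the number of plants per sample, and a genotype effect and an effect of the stage label cannot be told apart.

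Calmodulin and its relatives bind calcium ions through EF-hand motifs. When a stimulus such as touch, wounding, cold, low oxygen or a pathogen raises calcium in the cytosol, these proteins change shape and bind to target proteins, so that the calcium signal reaches enzymes, channels and transcription factors. The CML proteins consist mostly of EF hands with no further known domain, and several of their genes are known for fast, strong changes of transcript level under mechanical and environmental stress.

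CML38 and CML23 rose in rli, by 4.00-fold and 2.91-fold. CML37 rose as well, from a WT mean below the filter level for dim signals, by 3.23 on the log2 scale with all arrays and by 2.44 without WT replicate 3, so that no exact fold is given for it. No member passed the test in the other direction. CML30 and CML42 had a lower mean in rli and CML41 a higher one, without passing the test. The signal of CML43 was too dim to be tested and was lower on all 3 rli arrays than on any WT array. Of the 7 members, 6 had a mean log2 value at or above the filter level of 4.63 (an intensity of 24.7), and the counts that follow are of those 6. Of these, 3 rose, 0 fell and 3 did not pass. The 3 that rose include CML37, which reached the filter level only through the rli arrays where it was high. Over all 13648 tested probe sets 6.8% passed, 4.27% higher in rli and 2.53% lower. With the filter at the 60th percentile, where CML37 and CML30 were not tested, CML38 and CML23 passed, as did 9.95% of all probe sets tested there. The median difference over all 7 members was 0.48, against 0.09 over all probe sets other than controls. Over the 6 tested members it was 1.01, against 0.04 over all tested probe sets. That median leaves out CML43, which was dim in rli, and holds CML37, which reached the filter level only through its rli arrays. The filter thus favours a higher value here, and nothing is concluded from it. Values are MAS5 intensities in arbitrary units as deposited, a difference is rli minus WT on the log2 scale, given with its standard error from limma (3 arrays in each group), and a fold is 2 to the power of that difference. The limma p-values were adjusted by Benjamini-Hochberg over all tested probe sets, and the threshold was 0.05.

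**Figure D1:**
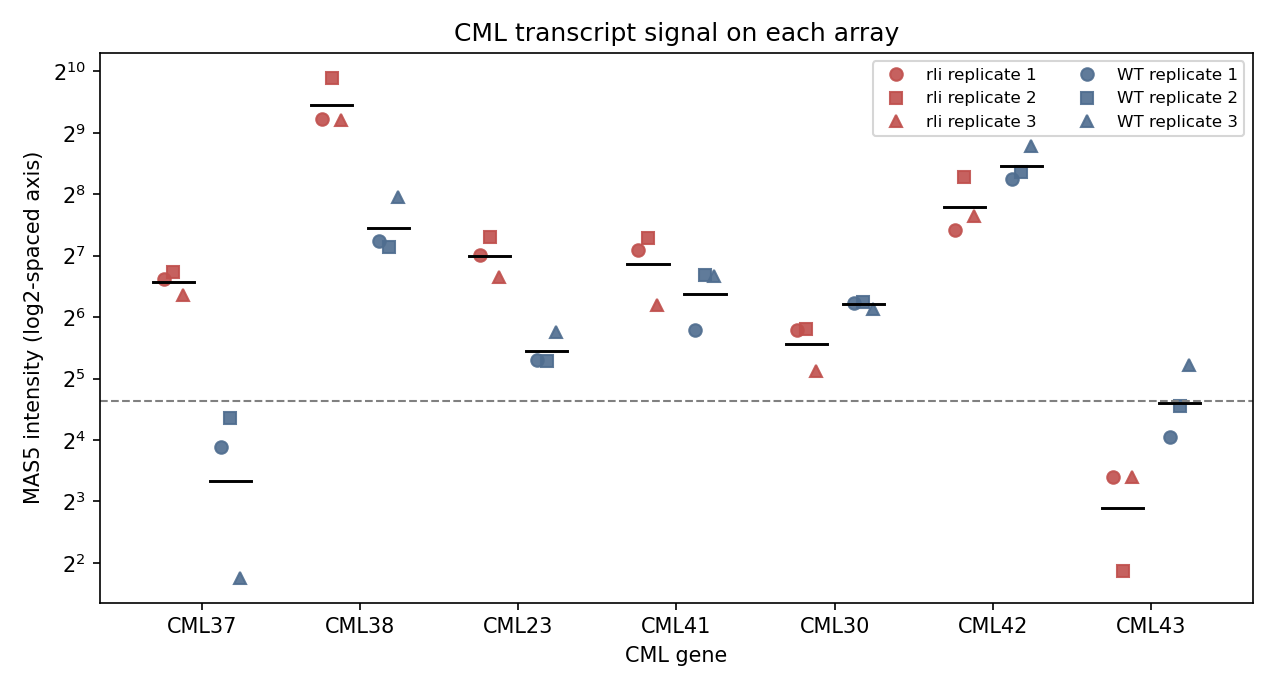
MAS5 intensity (vertical axis, spaced by log2) of each of the 7 CML genes on the 3 rli arrays (red, left of each pair) and the 3 WT arrays (blue, right), with symbols for the replicate number, black bars for the mean of log2 values and a dashed line at the filter level of 24.7. The rli arrays lie above all WT arrays for CML37, CML38 and CML23 and below them for CML30 and CML43, and heights are to be compared within a gene only.

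Some facts about the arrays touch these values. WT replicate 3 stood apart, with correlations of 0.75 to 0.79 with the other arrays across all probe sets, while the other arrays correlated at 0.85 to 0.92 with each other. The mean log2 ratio of the 3' to the 5' probe sets over 6 control pairs was 2.39 to 2.68 on rli arrays and 2.11 to 2.83 on WT arrays. For the labelled whole plants, 5 of 9 leaf markers and 2 of 7 root markers had a named probe set, and 0 of 4 flower and 0 of 2 seed markers did. The summed intensity of the 5 leaf markers (RCA, PSBW, PSBY, PSAN and SBPASE) was 9791 to 12010 on rli arrays and 16543 to 18382 on WT arrays. Of these leaf markers only PSAN fell past the threshold, by 1.54 ± 0.27 on the log2 scale (adjusted p = 0.0090). The sum of the 2 root markers (PYK10 and EXPA7) was 1079 to 1270 on rli arrays and 856.3 to 1139 on WT arrays, with EXPA7, a root hair gene, below the filter level in both groups, and no marker of either list was at 0. The part of these readings in the CML results was not tested. In RNA from whole plants, fewer cells of a type and less RNA per cell cannot be told apart. The labels do not say whether the replicates are separate plants, and the spread behind the p-values may be technical.

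CML37 (AT5G42380), a calmodulin-like protein of wound, drought and jasmonate responses, read 98.1, 106.1 and 81.9 on rli replicates 1 to 3, against 14.8, 20.6 and 3.39 on WT replicates 1 to 3. The rli arrays lay close together and far above all WT arrays, while WT replicate 3 was the lowest by a wide margin. On the log2 scale the means were 6.57 ± 0.19 in rli and 3.34 ± 1.39 in WT (SD, n = 3 each). The difference was 3.23 ± 0.63 (95% interval 1.82 to 4.64, adjusted p = 0.015). The WT mean lay below the filter level, so CML37 entered the test only through the rli arrays, where it was high, and the size of its difference is uncertain. With the filter at the 60th percentile it was not tested.

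For CML37 the size of the difference rests strongly on WT replicate 3. Without that array the difference was 2.44 ± 0.28 (adjusted p = 0.00017), where 15.3% of all tested probe sets passed, and with low values raised to a floor of 9.34 it was 2.74 ± 0.38 (adjusted p = 0.0023). The call was lost after quantile normalization (3.34 ± 1.03, adjusted p = 0.11) and without rli replicate 1, 2 or 3 (adjusted p = 0.092, 0.094 and 0.073), with differences of 3.15 to 3.33 without these. Among the probe sets of the same array, CML37 stood at percentiles 70.8, 73.2 and 66.1 on the rli arrays and at 34.7, 39.3 and 5.44 on the WT arrays. The groups therefore did not overlap by rank within the array either.

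CML38 (AT1G76650), known as a protein induced by low oxygen that joins cytoplasmic RNA granules, read 599.3, 949.2 and 592.6 on rli replicates 1 to 3, against 151.7, 141.1 and 246.6 on WT replicates 1 to 3. The lowest rli array was well above the highest WT array, which was WT replicate 3. The log2 means were 9.44 ± 0.39 in rli and 7.44 ± 0.44 in WT (SD, n = 3 each), a difference of 2.00 ± 0.28 (95% interval 1.38 to 2.62, adjusted p = 0.0026). Its percentile within the array was 95.8, 97.4 and 95.8 on the rli arrays and 80.9, 79.3 and 90.1 on the WT arrays. Without WT replicate 3 the difference was 2.25 ± 0.21 (adjusted p = 3.7e-05). CML38 remained past the threshold in all 17 alternatives, with a highest adjusted p of 0.019.

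CML23 (AT1G66400), which with the touch gene TCH2 (CML24) is known to act in nitric oxide levels and flowering time, read 129.1, 157.7 and 100.7 on rli replicates 1 to 3, against 39.5, 38.9 and 54.0 on WT replicates 1 to 3. The groups were separate, with WT replicate 3 again the highest of its group. The log2 means were 6.99 ± 0.32 in rli and 5.45 ± 0.27 in WT (SD, n = 3 each), a difference of 1.54 ± 0.25 (95% interval 0.98 to 2.11, adjusted p = 0.0065). Within-array percentiles were 77.4, 80.9 and 71.5 for rli and 52.2, 51.2 and 50.8 for WT, and the WT arrays were close together on this scale. Without WT replicate 3 the difference was 1.70 ± 0.24 (adjusted p = 0.00060). CML23 too was past the threshold in all 17 alternatives, with a highest adjusted p of 0.041 (without rli replicate 2).

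**Figure D2:**
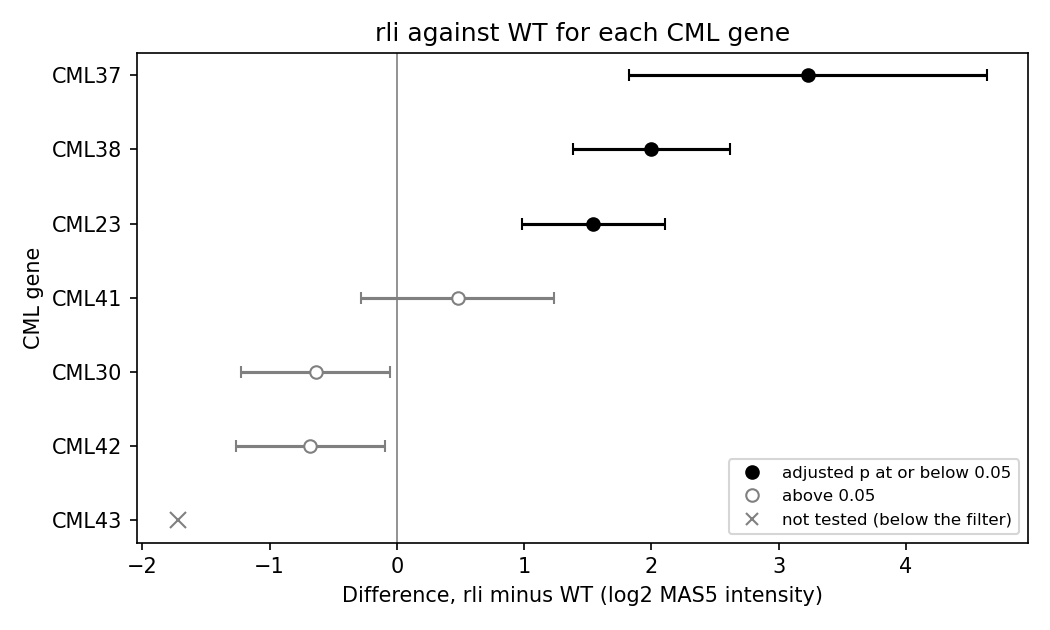
Difference of rli minus WT on the log2 scale (horizontal axis) for each CML gene, with 95% intervals from the limma fit across all tested probe sets. Filled points (CML37, CML38 and CML23, at 3.23, 2.00 and 1.54) passed the adjusted threshold of 0.05, open points did not, and the cross marks CML43 (-1.72), which was not tested.

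CML41 (AT3G50770), a protein of the plasmodesmata that takes part in callose deposition during immune responses, read 135.9, 156.3 and 73.5 on rli replicates 1 to 3, against 55.6, 103.0 and 101.2 on WT replicates 1 to 3. The groups overlapped, since rli replicate 3 lay below WT replicates 2 and 3. The difference was 0.48 ± 0.34 (95% interval -0.28 to 1.24, adjusted p = 0.48), so a rise of up to 1.24 or a fall of up to 0.28 on the log2 scale lies within the interval. CML41 passed in 0 of 17 alternatives, with differences from 0.18 without WT replicate 1 to 0.81 without rli replicate 3.

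CML30 (AT2G15680), a calmodulin-like protein located at mitochondria, read 55.1, 55.7 and 34.8 on rli replicates 1 to 3, against 75.2, 76.2 and 70.2 on WT replicates 1 to 3. All rli arrays were below all WT arrays, and the WT arrays were within a narrow range (SD of 0.06 on the log2 scale, n = 3), while the rli arrays spread more widely (0.39). The difference of -0.64 ± 0.26 (95% interval -1.22 to -0.05) had an unadjusted p of 0.036 and did not pass after adjustment (adjusted p = 0.20). Without WT replicate 3 it was -0.67 ± 0.28 (adjusted p = 0.13). It passed in 1 of 16 alternatives, with array weights (-0.78 ± 0.23, adjusted p = 0.026), where 23.3% of all tested probe sets passed.

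CML42 (AT4G20780), known for its part in the branching of leaf hairs and as a negative regulator of jasmonate-dependent defence against feeding insects, read 171.4, 312.2 and 200.1 on rli replicates 1 to 3, against 303.6, 327.5 and 441.5 on WT replicates 1 to 3. The groups overlapped by a narrow margin, as rli replicate 2 lay above WT replicate 1. The difference was -0.68 ± 0.26 (95% interval -1.26 to -0.09), with an unadjusted p of 0.027 and an adjusted p of 0.17. Without WT replicate 3, the highest array, it was -0.52 ± 0.23 (adjusted p = 0.17). It passed in 1 of 17 alternatives, with array weights (-0.64 ± 0.18, adjusted p = 0.020). Of all tested probe sets 21.1% had an unadjusted p at or below 0.05, so those of CML30 and CML42 are of a common size here.

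CML43 (AT5G44460), the closest relative of CML42, read 10.5, 3.67 and 10.5 on rli replicates 1 to 3, against 16.5, 23.6 and 37.4 on WT replicates 1 to 3. The groups did not overlap, yet all rli arrays and WT replicates 1 and 2 were below the filter level, and no detection calls were used here. The log2 means were 2.89 ± 0.88 in rli and 4.61 ± 0.59 in WT (SD, n = 3 each), a difference of -1.72. When the filter was lowered to the 20th percentile or left out, CML43 was tested and did not pass (adjusted p = 0.33 and 0.40).

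Over the 7 members the groups were separate in 5, with rli higher in 3 and lower in 2. Over all probe sets other than controls the groups were separate in 20.2%, with rli higher in 11.3% and lower in 8.9%. Over the tested probe sets alone, to which all members but CML43 belong, these shares were 28.1%, 15.2% and 12.9%. The 3 members that rose include CML37 and CML38, which belong to the same branch of the family, whereas CML42 and CML43, the members of another branch, both had a lower mean in rli. This contrast leaves out CML23, CML30 and CML41, the groups of CML42 overlapped, and a pattern by branch was not tested. Opposite directions within the family were seen in the sign of the means alone, since 0 of the members with a lower mean in rli passed the test.

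**Figure D3:**
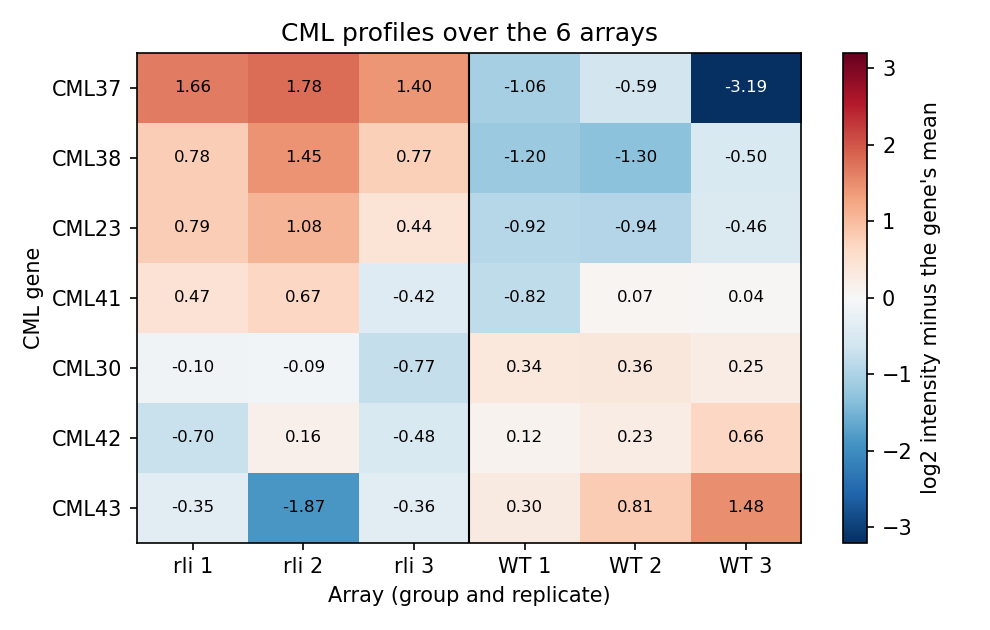
Log2 intensity of each CML gene minus its own mean over the 6 arrays, with arrays on the horizontal axis (rli left of the line, WT right) and genes on the vertical axis. CML37, CML38 and CML23 are above their mean on all rli arrays and below it on all WT arrays, with the lowest value, -3.19, for CML37 on WT replicate 3.

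The arrays of a group were ordered alike in several members. Among the rli arrays replicate 2 was the highest in 6 of 7 members, all but CML43, and in 34.4% of all tested probe sets. Replicate 3 was the lowest rli array in 5 of 7 members (CML37, CML38, CML23, CML41 and CML30) and in 29.1% of all tested probe sets. Among the WT arrays replicate 3 was the highest for CML38, CML23, CML42 and CML43 and the lowest for CML37 and CML30, where the shares of all tested probe sets were 40.01% for the highest and 45.8% for the lowest. CML37 thus stood opposite to CML38 and CML23 on that array, and this is the place where the members that rose differ most among themselves. That contrast rests on a single dim reading, since CML37 was at 3.39 there, below the floor of 9.34 and the filter level of 24.7.

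Likeness of pattern was measured as the root mean square difference of centred log2 values over the 6 arrays, so that a smaller value means more alike. Among the members the closest pair was CML38 and CML23, at 0.28, followed by CML30 and CML42, at 0.35. CML37 lay 1.23 from CML38 and 1.28 from CML23, farther than CML30 lay from CML42. The widest distance, 2.77, was that of CML37 and CML43. The dim reading of CML37 on WT replicate 3 enters all distances of CML37, also those to other genes, and its part in them was not tested.

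Against 1069 tested probe sets with 1 gene and a symbol, the nearest patterns were named for each tested member, as a description over 6 arrays. A gene near a member on these arrays has by construction a difference of like sign and size. Nearest to CML38 were APL3 (a large subunit of ADP-glucose pyrophosphorylase, 0.15), UF3GT (a glycosyltransferase of anthocyanin synthesis, 0.15) and BETA-VPE (a vacuolar processing enzyme, 0.21). Nearest to CML23 were CSLC04 (a xyloglucan glucan synthase, 0.14), CHIL (a chalcone isomerase-like protein, 0.17) and PUB23 (a U-box ubiquitin ligase, 0.18). The nearest to CML37 were all more distant, OSM34 (an osmotin-like protein) at 0.58, TBL26 at 0.65 and COR15A (a cold-regulated chloroplast protein) at 0.67.

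Of the members that did not pass, CML41 was nearest to the cytochrome P450 gene CYP71B34 (0.22), OBE1 (0.24) and SAG101 (0.24). CML30 was nearest to IVD, an enzyme of leucine breakdown (0.10), the trihelix factor gene GT2 (0.12) and the glutathione transferase gene GSTU27 (0.15). CML42 was nearest to the glutaredoxin gene GRXC2 (0.15), ENGase85A (0.15) and the cytochrome P450 gene CYP71B23 (0.15). Of these 9 genes only GSTU27 passed the test, at -0.71 ± 0.18 (adjusted p = 0.045).

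The genes next to the members along the chromosomes were read as well. Of 11 neighbouring probe sets with 1 gene, 7 were tested, and 0 changed by limma, with 0 at an unadjusted p at or below 0.05 and differences from -0.45 to 0.30. Neither neighbour of CML23 had such a probe set, and both neighbours of CML42 were below the filter level, so none was tested beside these members. Over all tested probe sets 6.8% passed and 21.1% had an unadjusted p at or below 0.05, so a count of 0 among 7 is near the background. Beside CML37, SPP (AT5G42390), a stromal processing peptidase, stood at 0.10 ± 0.21, and AT5G42370 at 0.04 ± 0.48. Beside CML38, AT1G76660 stood at -0.09 ± 0.31. AT2G15690, whose span overlaps that of CML30 in the gene table, stood at 0.03 ± 0.28.

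The neighbour of CML38 on its other side, AT1G76640, is named CML39 by a synonym in the gene table, a synonym that the table also gives to CML37. Its probe set read 14.9, 0.46 and 2.26 on rli replicates 1 to 3, against 1.19, 1.76 and 17.6 on WT replicates 1 to 3. All 6 arrays were below the filter level and the groups overlapped, so this close relative and neighbour of CML38 was not tested. Adding it to the members left the count that changed at 3.

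The other genes of calcium signalling could be read only in small part. Of 129 listed loci of calmodulins, CBL sensors, CIPK and CPK kinases, calmodulin-binding transcription activators, and calcium channels, pumps and exchangers, 6 had a named probe set. They were the transcription activator genes AT1G67310, AT3G16940 and AT4G16150, and glutamate receptor-like (GLR) channel genes. No listed calmodulin, CBL, CIPK, CPK, pump or exchanger gene had a named probe set, so those classes were not read. With AT1G76640 the 6 loci make 7, of which 4 were tested, the transcription activator genes and GLR3.3. Of the 4, 0 rose and 0 fell by limma, with 0 at an unadjusted p at or below 0.05. Over all tested probe sets 6.8% passed and 21.1% had an unadjusted p at or below 0.05, so a count of 0 among 4 is near the background. Their median difference was 0.25, against 0.04 over all tested probe sets. The glutamate receptor-like channel gene GLR3.3 (AT1G42540), known from wound signals that travel between leaves, stood at 0.10 ± 0.33 (adjusted p = 0.91). AT1G67310 stood at 0.39 ± 0.22 (adjusted p = 0.36), AT3G16940 at 0.40 ± 0.31 (adjusted p = 0.52) and AT4G16150 at -0.36 ± 0.53 (adjusted p = 0.77).

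A wider list was drawn after the data were seen, from loci whose names in the gene table hold calmodulin or calcium or whose symbol is GLR with numbers. It held 12 probe sets outside the CML members, of which 7 were tested, and 0 changed by limma, with 0 at an unadjusted p at or below 0.05. The list repeats the GLR genes and AT1G76640 of the first list, so it is not a separate reading. A match by name does not show a part in calcium signalling. With 6.8% and 21.1% of all tested probe sets at these thresholds, a count of 0 among 7 is near the background. The median difference of this list was 0.10. CaS, the calcium-sensing receptor of the chloroplast, stood at 0.29 ± 0.20 (adjusted p = 0.45), and the calmodulin N-methyltransferase gene AT4G35987 at -0.41 ± 0.42 (adjusted p = 0.65). The difference between the CML members and the genes of these lists was not tested.

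**Figure D4:**
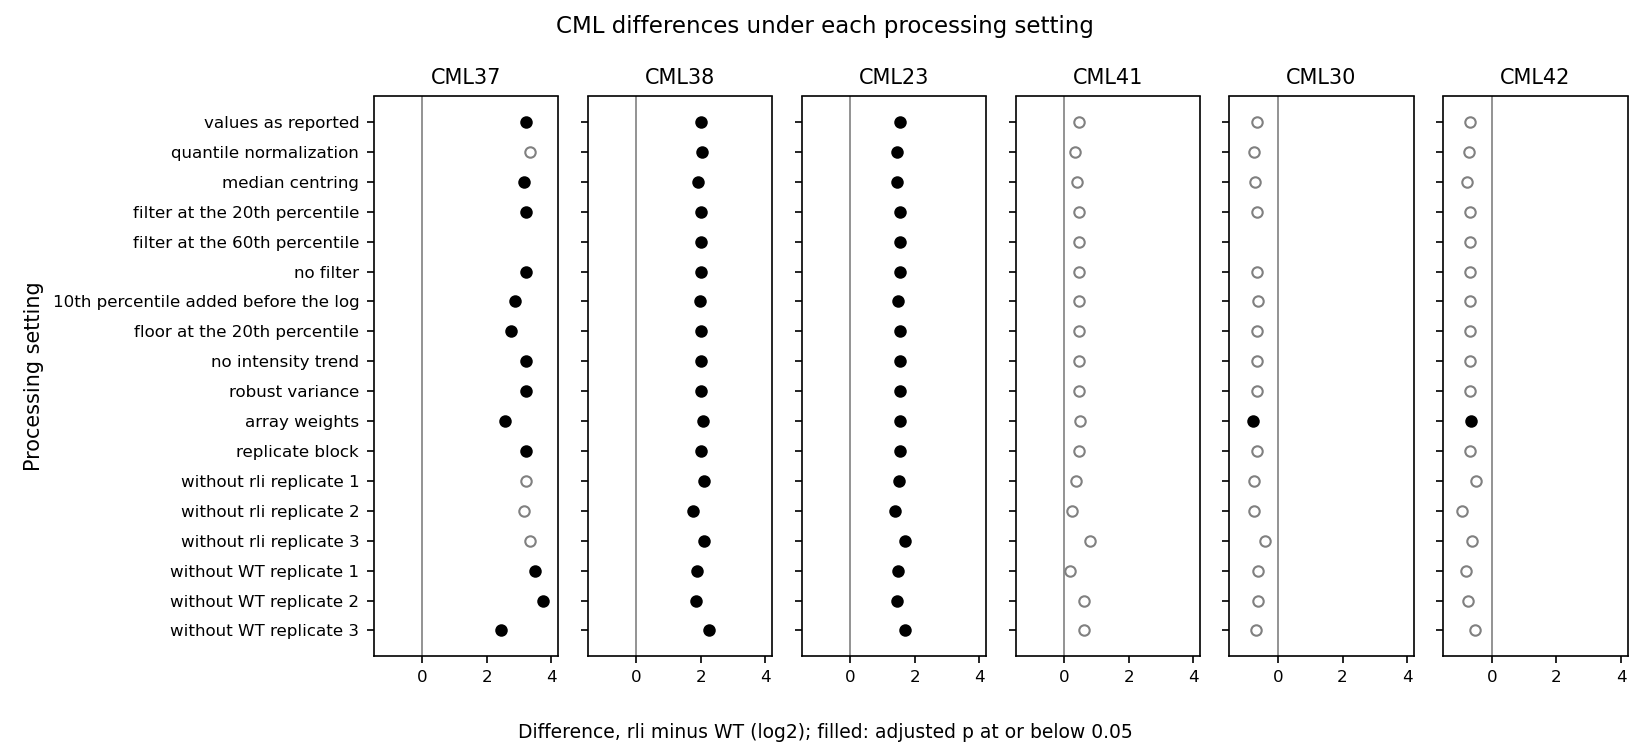
Difference of rli minus WT (log2, horizontal axes) for the 6 tested CML genes under each processing setting (vertical axis), with filled points at an adjusted p at or below 0.05 and no point where a setting did not test the gene. CML38 and CML23 are filled throughout, CML37 is open after quantile normalization and without any 1 rli array, and CML30 and CML42 are filled with array weights alone.

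No difference of a tested member changed sign in any alternative that tested it. The groups of CML37, CML38, CML23 and CML30 do not overlap, so leaving out an array could not have turned their sign. For CML41 the range was 0.18 to 0.81 and for CML42 -0.93 to -0.50.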

How the data were processed

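The deposited values are linear MAS5 intensity signals; MAS5 and GCOS are named in the submitters' processing notes, and their versions are not given in the sources used here. Trimmed of 2% of probe sets at each end, every array averaged 100.01, so no further scaling was applied before the log2 was taken. Probe sets were named through the platform's gene table (13513 with 1 gene, 503 with several, 8794 unnamed here) and the reference gene table (assembly TAIR10.1), used for names and gene order only. The 64 control probe sets, and those with a mean log2 value below the 40th percentile, were left out. This left 13648. Groups came from the sample titles. The test was limma 3.58.1 under R 4.3.3 (lmFit, eBayes with an intensity trend), two-sided, with genotype alone. Genes were named by a rule: every member, in each group of the calcium list (such as channels and pumps, where GLR3.3 alone was tested) the 2 with the smallest p where none passed, and the 3 nearest patterns per member. AT4G16150, the neighbours, CaS and AT4G35987 of the wider list, and the leaf and root markers were named with their values in view. The members and lists were chosen with earlier results of these data known. On simulated data with 200 changed among 13648 probe sets, 0% were recovered at a log2 difference of 1, 63% at 2 and 89% at 3, with 0, 3 and 10 false calls. In the data 928 passed, and the adjusted p depends on the share that changed, so these recoveries need not hold there. GSTU27, for example, passed at a difference of -0.71. Alternatives were other scalings, filters, a pseudocount of 2.45, a floor, other variance models, array weights, a block for the replicate number, and each array left out. matplotlib 3.10.9 under Python 3.11.15 drew the figures.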

Additional observations from a re-analysis of the deposited data

How the results depend on the processing

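Over all probe sets 928 changed. The count was 332 with median centring, 593 when the intensity trend was dropped and 3181 under array weights, and with each array left out it lay between 389 (without rli replicate 3) and 2085 (without WT replicate 3). The count of changed CML members was 3, with 5 under array weights, where CML30 (-0.78) and CML42 (-0.64) also passed, 2 with the filter at the 60th percentile, where CML37 and CML30 were not tested, and 2 or 3 with each array left out. CML37 lost its call after quantile normalization (3.34), and with each array left out its difference lay between 2.44 and 3.74, with the call lost without rli replicate 1, 2 or 3. It kept the call without any 1 WT array, and the cause was not tested. The count of changed loci in the calcium list, of which only 4 were tested in the main fit, was 0 in all 18 alternatives. Of these alternatives 1, the wider list by names, was chosen after seeing the data. With a replicate block 1300 probe sets changed and the same 3 CML genes passed, CML37 at an adjusted p of 0.0025. Same-numbered samples had deviations that correlated at -0.09, 0.33 and 0.32 for replicates 1, 2 and 3. For replicates 2 and 3 the same-numbered sample was the best match, whereas WT replicate 1 correlated best with rli replicate 2 (0.27). The labels give a shared number only, and whether same-numbered samples form pairs is not settled by these values. Precision is limited by the number of arrays and, for CML37 and CML43, by a signal near or below the filter level.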
